A study of Mus musculus with 8 samples.

Results

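The genes described here encode the extracellular matrix and the enzymes that assemble or cut it: collagens, laminins, matrix metalloproteinases, tissue inhibitors of metalloproteinases (Timps), lysyl oxidases, fibulins, fibrillins, thrombospondins, fibronectin (Fn1), Sparc, periostin (Postn) and tenascin C (Tnc). They were taken from the gene table by gene symbol, under a naming rule written with earlier results of these data known, which gave 99 of 39017 genes. The question asked of them was whether, library by library, they rise and fall together, as RNA left over from fibroblast feeder cells would. The libraries came from induced germinal center-like B cells (iGBs), which are splenic B cells of C57BL6/J mice activated for 4 days by IL-4 at 1 ng/mL on a layer of 40LB cells. 40LB is a fibroblast line made to display CD40L and to secrete BAFF, and before RNA extraction the B cells were parted from it by elutriation, a separation by size and density. There were 4 libraries of Prmt5-null iGBs (genotype PRMT5 FF Cgamma1-cre) and 4 of control iGBs (genotype Cgamma1-cre, with intact Prmt5). Both genotypes carry the Cre, which acts only in B cells that have begun to transcribe the Cgamma1 constant region, and the feeder cells carry no Cre. Each library is one biological sample by the labels and is named below by its title, PRMT5 for Prmt5-null and CTRL for control. Values of single libraries are always listed in 1 order, PRMT5-10617, PRMT5-10618, PRMT5-10770, PRMT5-10771 for Prmt5-null and CTRL-10650, CTRL-10370, CTRL-10596, CTRL-10597 for control.

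Matrix proteins are made in bulk by fibroblasts. Fibrillar collagens form the cables of connective tissue, type IV collagen and laminins form the sheets of basement membranes, lysyl oxidases cross-link collagen, and metalloproteinases cut it under the restraint of Timps. B cells are not known as producers of fibrillar collagen, so B cells grown on a fibroblast layer and then separated from it are a setting in which matrix transcripts can come from cells other than those studied. A transcript from a single source keeps a fixed ratio to other transcripts of that source where expression per source cell stays constant. Whether it stayed constant in these libraries was not tested.

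The libraries held 36731721 to 50366174 recovered reads. Prmt5 itself ran from 1060 to 1994 normalized counts in the Prmt5-null libraries and from 11084 to 13087 in the controls, so the labels and the targeted gene matched. Of the 9 T cell markers, which summed to 347 to 464 normalized counts per library, Cd3e was listed at 0 in all 8 libraries, while Cd5 and Cd28 had means of 219 and 169. Of the 9 myeloid markers (sum 182 to 301 in the Prmt5-null libraries and 122 to 220 in the controls) S100a8 and S100a9 were at 0, and Emr1 had a mean of 133 and Lyz2 of 38.9. Of the 9 endothelial markers (1492 to 1874 and 1372 to 1622) Emcn and Tie1 were at 0, and Pecam1 had a mean of 1183, Esam of 336 and Cdh5 of 70.1. Of the 8 megakaryocyte markers (121 to 182 and 59 to 135) Ppbp was at 0 and Itga2b had a mean of 97.4. The 12 B cell marker rows (Ebf1 and Cr2 have 2 each) summed to 187072 to 223442 normalized counts per library, against 11240 to 27005 for all 99 matrix genes together. The series design names 2 experiments, but no label ties a library to either, so experiment and library cannot be matched here.

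Upstream sequence is shown for 4 collagen genes on which the results below turn: Col3a1 and Col5a1 varied together with fibroblast markers, Col27a1 was called between the genotypes with and without those markers as a covariate, and Col11a2 was called only with them. The 250 bases before the RefSeq start (GRCm38.p6) are written 5' to 3' on the coding strand, here the plus strand in each case, and no annotated exon overlaps these windows. The Col3a1 window is chr1:45311288-45311537, the Col5a1 window is chr2:27886175-27886424, the Col27a1 window is chr4:63215162-63215411, which lies between exons inside the annotated gene, and the Col11a2 window is chr17:34038888-34039137. Capitals mark matches on either strand to 4 short motifs. The TATA box was searched as TATAAA. The box that NF-Y binds was searched as CCAAT. The motif of AP-1 was searched as TGANTCA. The GC box, which Sp1 binds, was searched as GGGCGG. No match overlapped another motif in these windows.
Col3a1: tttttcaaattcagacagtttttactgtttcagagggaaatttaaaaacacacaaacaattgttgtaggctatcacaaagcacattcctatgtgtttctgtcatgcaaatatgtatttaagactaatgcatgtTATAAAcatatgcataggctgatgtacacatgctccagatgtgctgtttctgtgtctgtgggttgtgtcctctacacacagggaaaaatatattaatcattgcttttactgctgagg
Col5a1: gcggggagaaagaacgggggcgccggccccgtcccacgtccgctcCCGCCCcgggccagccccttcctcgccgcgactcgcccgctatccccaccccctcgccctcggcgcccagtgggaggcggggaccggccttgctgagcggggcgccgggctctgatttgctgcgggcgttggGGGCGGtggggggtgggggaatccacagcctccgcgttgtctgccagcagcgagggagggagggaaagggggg
Col27a1: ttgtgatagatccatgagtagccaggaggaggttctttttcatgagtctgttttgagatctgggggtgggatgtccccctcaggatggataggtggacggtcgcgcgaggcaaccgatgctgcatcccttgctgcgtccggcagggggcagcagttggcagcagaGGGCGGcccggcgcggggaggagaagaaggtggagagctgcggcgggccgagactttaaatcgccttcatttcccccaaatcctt
Col11a2: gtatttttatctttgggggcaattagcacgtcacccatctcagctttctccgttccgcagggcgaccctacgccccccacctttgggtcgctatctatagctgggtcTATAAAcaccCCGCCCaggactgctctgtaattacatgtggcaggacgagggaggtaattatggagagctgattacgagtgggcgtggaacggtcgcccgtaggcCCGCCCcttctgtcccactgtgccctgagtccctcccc
The TATA box occurred once in Col3a1 and once in Col11a2, and the GC box occurred in Col5a1 (2 matches), Col11a2 (2 matches) and Col27a1 (1 match). Of 32851 windows of this length, 12.4% held the TATA box, 33.8% the NF-Y box, 6.75% the AP-1 motif and 32.7% the GC box. Of the 42 windows of the 36 tested members in the RefSeq table, 5 held the TATA box, 13 the NF-Y box, 2 the AP-1 motif and 28 the GC box. These letters describe the windows and identify no bound factor, and neither the AP-1 motif nor the NF-Y box was present in any of the 4 windows shown.

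Of the 99 matrix genes, 5 (Fbln7, Mmp27, Timp4, Lama1 and Fbn2) were listed at 0 in every library and 44 had a mean below 10 normalized counts and were not tested. The remaining 50 were tested. Abundance was concentrated in a few genes. Per kilobase of exon, the highest mean levels were those of Thbs1 (569 normalized counts per kb), Lamc1 (276), Col1a1 (223) and Col1a2 (179). Postn, a periodontal and cardiac fibroblast product, was barely detected, with 6 libraries at 0 and a highest value of 4.74. Collagen VI needs 3 different chains, and on the normalized count scale Col6a1 reached 972 and Col6a2 reached 201 while Col6a3 did not exceed 18.5.

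Summed over the 99 genes, the normalized count was 27005, 16479, 21535 and 20277 in the Prmt5-null libraries. It was 17580, 11240, 13438 and 14531 in the controls. These sums are 0.025% to 0.0618% of the reads. PRMT5-10617 stood highest, and the genotypes overlapped only in that PRMT5-10618 lay under CTRL-10650. The mean sum was 1.5 times as high in the Prmt5-null libraries. The libraries were also divided on the second principal component of the other genes, which put 2 of each genotype on each side. One side held PRMT5-10617 and PRMT5-10618 (27005 and 16479) with CTRL-10596 and CTRL-10597 (13438 and 14531). The other held PRMT5-10770 and PRMT5-10771 (21535 and 20277) with CTRL-10650 and CTRL-10370 (17580 and 11240). PRMT5-10618 and CTRL-10650, the only overlapping pair, fell on opposite sides. The lack of overlap within each side therefore followed from the division and says nothing more about the genotypes. No label gives this division. In bulk RNA, more feeder cells in a sample and more matrix RNA per cell cannot be told apart.

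A fibroblast index was set beside each library, the mean log2(normalized count + 1) of 23 fibroblast genes that are not members, such as Prrx1 and Twist2 (mesenchymal transcription factors), Dcn and Bgn (small proteoglycans), Axl and Mfap5. The index was 7.11, 6.48, 6.93 and 6.77 in the Prmt5-null libraries, and 6.61, 6.31, 6.16 and 6.30 in the controls. Its mean was 6.82 ± 0.266 (SD, n = 4) in the Prmt5-null and 6.35 ± 0.189 (SD, n = 4) in the control libraries, a difference of 0.47 on the log2 scale. The index was highest in PRMT5-10617 and lowest in CTRL-10596, and 1 control library, CTRL-10650, lay above 1 Prmt5-null library, PRMT5-10618. Some index genes (Dcn, Bgn, Nid1, Nid2, Mfap5) encode matrix proteins too, so the index is separate from the members by name but not by kind. Thy1, S100a6, Anxa1 and Axl are expressed outside fibroblasts as well.

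Within a genotype most of the abundant matrix genes varied together. In PRMT5-10617, 27 of the 50 members had their highest value of the 4 Prmt5-null libraries, and in PRMT5-10618, 31 had their lowest. Among controls, 26 members were highest in CTRL-10650 and 24 were lowest in CTRL-10370. Over all 16250 genes tested, any library held the highest value for 15.9% to 33.3% of genes, and the counts of the highest libraries (54% and 52% of the members) lay above that range. The lowest value was held for 16.8% to 33% of all genes, and for 62% and 48% of the members in PRMT5-10618 and CTRL-10370. The median member deviated from its own genotype mean by 0.32, -0.35, 0.01 and -0.08 (log2) in the Prmt5-null libraries, and by 0.23, -0.24, -0.08 and 0.06 in the controls. The B cell marker rows, taken the same way, deviated by 0.01, 0.12, -0.16 and 0.08 and by -0.09, 0.05, 0.06 and -0.05. In PRMT5-10618 the B cell markers thus had the opposite sign to the matrix genes, and in PRMT5-10617 they were near their mean.

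**Figure D1:**
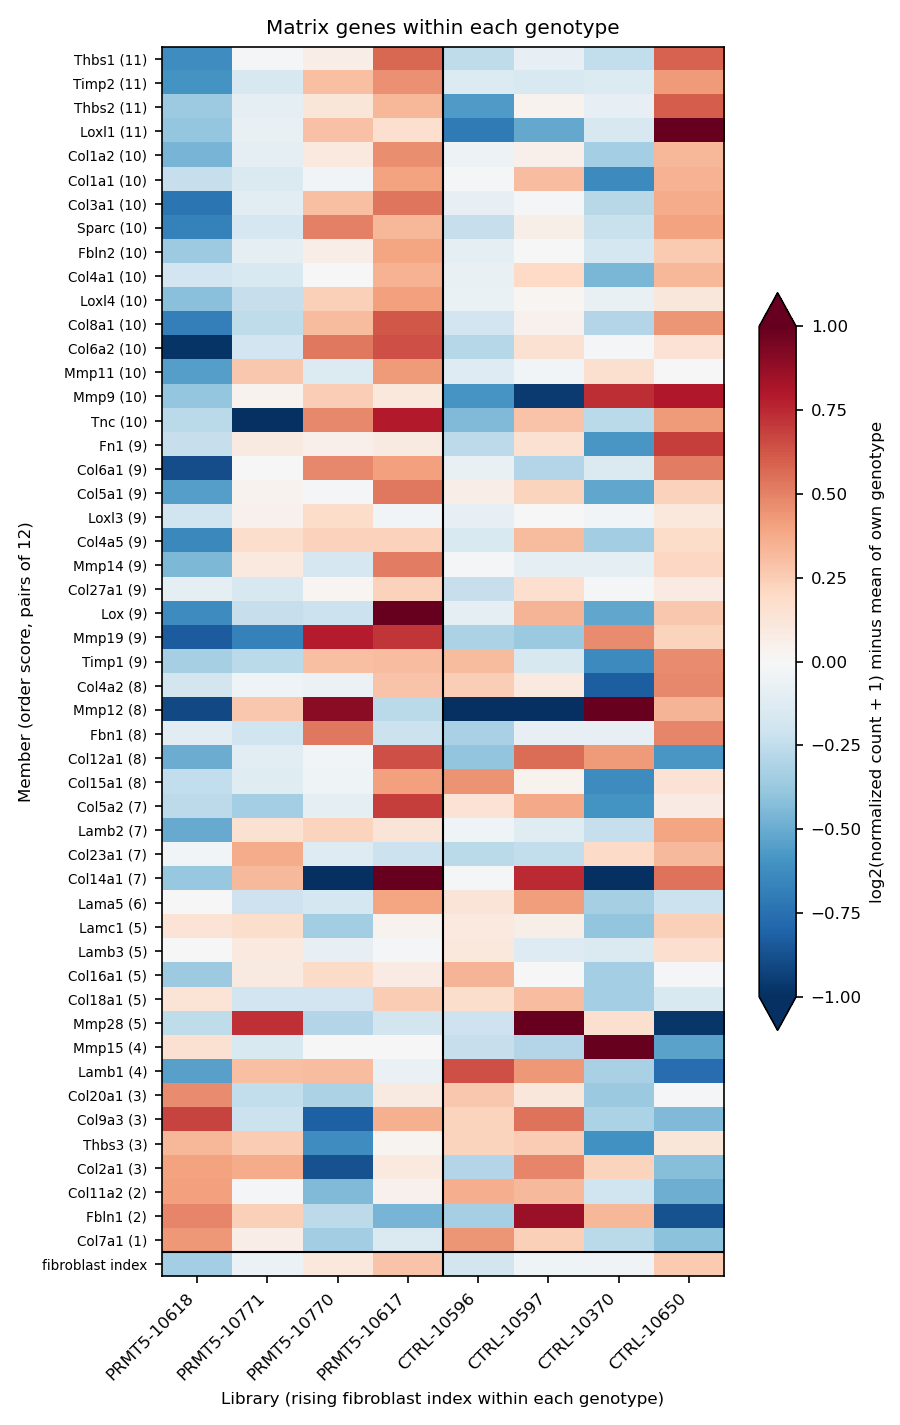
Heat map of the 50 tested matrix genes (rows, ordered by the order score in brackets) in the 8 libraries (columns, in rising order of the fibroblast index within each genotype); color is log2(normalized count + 1) minus the mean of the gene's own genotype, cut at 1 and -1, and the last row is the index. Most of the upper rows turn from blue to red from left to right, as the index does, more evenly in the Prmt5-null than in the control libraries, and the lowest rows, Col7a1, Fbln1 and Col11a2, turn the other way.

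For each gene an order score was counted: of the 12 pairs of libraries within a genotype, the number that the gene puts in the same order as the fibroblast index. Each pair counts fully, also CTRL-10370 and CTRL-10597, whose index values of 6.31 and 6.30 are nearly tied. Among controls the index was lowest in CTRL-10596, but 24 members were lowest in CTRL-10370 and 11 in CTRL-10596. The median score was 9 for the 50 members and 6 for all genes tested. A score of 10 or more was reached by 16 members (32%), against 8.48% of all genes tested. Those 16 were Thbs1, Timp2, Thbs2 and Loxl1 at 11, and Col1a2, Col1a1, Col3a1, Sparc, Fbln2, Col4a1, Loxl4, Col8a1, Col6a2, Mmp11, Mmp9 and Tnc at 10. A score of 6 or less was found for 15 of the 50 members, against 9293 of all 16250 genes tested. Among the 15 were 4 of the 27 members with a mean of at least 100: Lamc1, Lamb3 and Col16a1 at 5 and Col11a2 at 2. The lowest score was 1, for Col7a1, the anchoring fibril collagen. The members therefore did not all follow the index, and the source of the RNA of those that did was not tested.

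Each class holds few genes, and differences between classes were not tested. Thrombospondins had a median score of 11 (3 tested), Timps of 10 (2 tested), the group of Fn1, Sparc, Postn and Tnc of 10 (3 tested), collagen VI and lysyl oxidases of 9.5 (2 and 4 tested), fibrillar collagens and metalloproteinases of 9 (8 and 7 tested), and basement membrane collagens and the fibulins and fibrillins of 8 (5 and 3 tested). Laminins had a median of 5 (5 tested), and none reached 10. The remaining collagens, which include network, transmembrane and fibril-associated types, had a median of 6 (8 tested).

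Ratios between members were then taken on the linear scale. Col1a2, one of the chains of type I collagen, was used as the reference because it is abundant and had a high order score, a choice made with the data in view. The ratios are therefore no separate check of the order scores. Col1a2 itself was 3737, 1959, 2906 and 2532 normalized counts in the Prmt5-null libraries and 2069, 1301, 1588 and 1706 in the controls. The level of Fbln2, a fibulin of elastic fibers, spanned 2.59-fold over the 8 libraries, but its ratio to Col1a2 spanned 1.2-fold, from 0.138 to 0.166 (coefficient of variation 6.83%, against 35.5% for the level). For Col5a1, which nucleates type I fibrils, the coefficient of variation fell from 34.6% for the level to 10.9% for the ratio, for Thbs1 from 42.9% to 11.2%, for Timp2 from 43.2% to 12%, and for Col1a1, the partner chain of Col1a2, from 30.3% to 13.7%. The 8 libraries span both genotypes, so a ratio also removes a genotype difference that a gene shares with Col1a2. The same measure was not counted over all genes. Of the 26 other members with a mean of at least 100, 23 varied less as a ratio to Col1a2 than as a level. Among the 23 was Col16a1 (41.1% as a level, 21.3% as a ratio), although its order score was 5.

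The other 3 were Lamc1, Lamb3 and Col11a2. Lamc1, the gamma chain shared by most laminins, varied by 15.3% as a level and by 30.4% as a ratio to Col1a2. Lamb3 varied by 24.3% as a level and by 48.2% as a ratio, which was lowest in PRMT5-10617 (0.102) and highest in CTRL-10370 (0.408). Col11a2, a minor fibrillar chain of cartilage, varied by 27.9% and 38.3%. Within the Prmt5-null libraries alone the ratio of Lamc1 to Col1a2 ran from 0.613 to 1.27 and that of Col11a2 from 0.133 to 0.356.

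**Figure D2:**
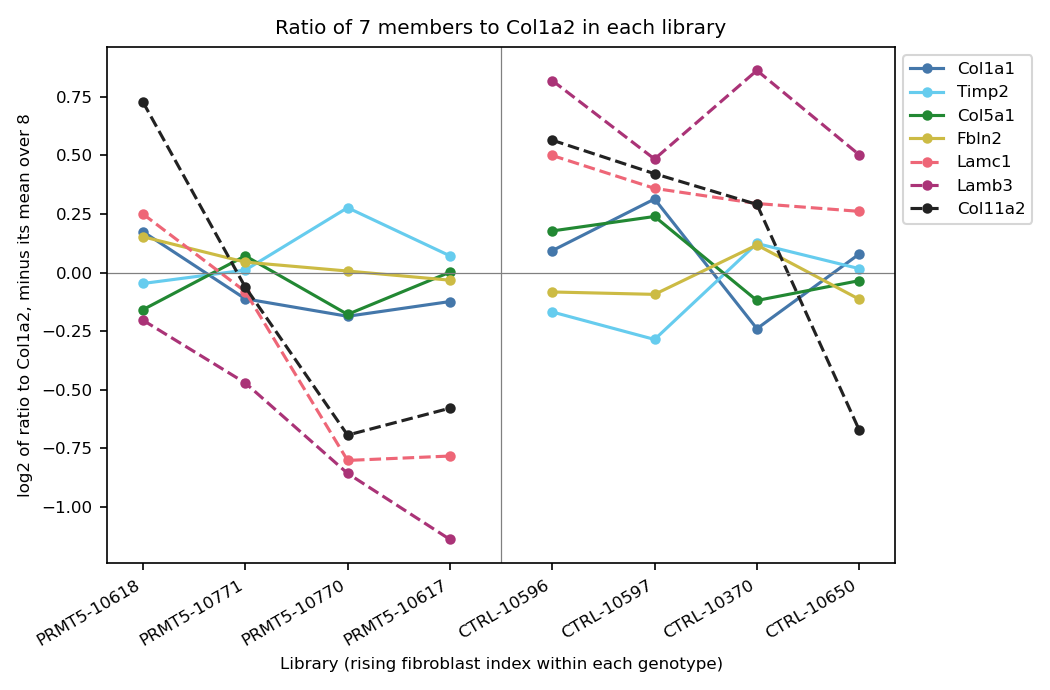
Ratio of 7 members to Col1a2 in each library, as log2 and centered on its mean over the 8 libraries (y axis), with libraries in rising order of the fibroblast index within each genotype (x axis). Solid lines (Col1a1, Timp2, Col5a1, Fbln2) stay near 0, and dashed lines (Lamc1, Lamb3, Col11a2) fall within the Prmt5-null libraries toward PRMT5-10617 and PRMT5-10770.

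The levels of all tested members were also set against the index. It is the index behind the order score, so the values below restate that covariation in part. The median SD of a member's log2 level over the 8 libraries was 0.579, and it was 0.407 once the index of each library had been subtracted; over all genes tested the SD went the other way, from 0.228 to 0.406. The spread narrowed for 38 members (76%), compared with 13.5% of all genes, and for 24 of the 27 members with a mean of at least 100. Subtracting the index adds its own spread to a gene that does not follow it, so genes of small spread tend to widen. The members began with a larger spread than all genes, so these shares are not a like comparison. Within genotype, the median slope of a member on the index was 0.94 log2 units per log2 unit of index, against 0.00 for all genes. Slopes above 0.5 were found for 33 members (66%) and 13.5% of all genes. Negative slopes were found for 12 members (24%) and 50.3% of all genes, with Fbln1 (-1.75), Col7a1 (-1.32) and Col11a2 (-1.18) at the low end of the members.

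Between the genotypes, 45 of the 50 tested members had a higher mean log2(normalized count + 1) in the Prmt5-null libraries, against 8184 of all 16250 genes tested. Mmp12, one of the 45, had the lower mean on the linear scale. Taking as called a gene with a limma adjusted p under 0.05 and a 1.5-fold change or more, 19 members were higher, which is 38% of those tested against 3.49% of all genes, and 1 member, Lamb3, was lower, against 2.99% of all genes. In 16 members every Prmt5-null library was above every control library (9.67% of all genes) and in 1 every one was below (10.2% of all genes). The count was 20 and 1 by edgeR (3.72% and 2.99% of all genes), 22 and 1 by DESeq2 (4.46% and 3.4%), 22 and 1 with the principal component division as a block (4.07% and 3.37%), and 19 higher with no minimum fold (6.51%). With 1 library left out it was 9 to 23 higher, with 9 without PRMT5-10617 and 10 without CTRL-10596, and Lamb3 was not called without PRMT5-10770, CTRL-10650 or CTRL-10596. Col3a1, Fbln2, Loxl4, Col16a1, Loxl3, Col27a1, Mmp15 and Col2a1 were called whichever library was left out. The median log2 fold change was 0.66 over the members and 0.00 over all genes tested, with a range of -0.61 to 1.97. The index differed by 0.47, with 33 members above that value and 17 below it. Within 0.5 of it lay 39 of the 50 members. That range also takes in genes with almost no difference, such as Lamc1 at 0.02, and the median of all genes. The share of all genes in it was not counted, so the 39 do not show a match to the index. Values below are normalized counts in the order given above, and fold changes are Prmt5-null minus control on the log2(normalized count + 1) scale.

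Of the 8 fibrillar collagens tested, 5 rose: Col1a2, Col3a1, Col5a2, Col27a1 and Col2a1. Col3a1, the collagen of reticular fibers, was 1418, 592, 1209 and 911 in the Prmt5-null libraries and 628, 399, 459 and 479 in the controls. It rose by 1.02 ± 0.233 (SE; limma adjusted p = 0.0136), with CTRL-10650 above PRMT5-10618. Col1a2 rose by 0.72 ± 0.181 (limma adjusted p = 0.0213) with the same overlap. Its partner Col1a1 was 2280, 1470, 1697 and 1557 against 1453, 732, 1126 and 1410, so that all Prmt5-null libraries lay above all controls, but it missed the threshold at 0.60 ± 0.202 (limma adjusted p = 0.0717). Col5a2 rose by 0.88 (adjusted p = 0.0361), and Col5a1, the other chain of type V collagen, gave 0.59 (adjusted p = 0.105).

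Col27a1 and Col2a1, both known from cartilage, changed most among the collagens. Col27a1 was 204, 162, 175 and 155 in the Prmt5-null libraries and 67.9, 63.3, 54.7 and 72.3 in the controls. The groups were far apart and each was narrow, and the rise was 1.42 ± 0.165 (limma adjusted p = 0.000291). Col2a1 was 37.0, 45.9, 18.4 and 44.8 against 6.46, 10.7, 7.17 and 13.03, again with no overlap, and rose by 1.83 ± 0.369 (limma adjusted p = 0.00697). Its lowest Prmt5-null value was in PRMT5-10770, a library with a high index, and its order score was 3.

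Among basement membrane collagens 3 of 5 tested rose. Col4a1 was 448, 307, 350 and 317 in the Prmt5-null libraries and 262, 152, 197 and 239 in the controls. Col4a2, which lies head to head with it and encodes the partner chain, was 387, 280, 305 and 307 against 233, 93.6, 198 and 179. Both were without overlap, and they rose by 0.75 ± 0.184 and 0.93 ± 0.241 (limma adjusted p = 0.0183 and 0.0255). Col4a5 rose by 0.97 (adjusted p = 0.017). Col18a1, the endostatin precursor, gave -0.43 (adjusted p = 0.198) and Col15a1 0.08 (adjusted p = 0.911). Neither collagen VI gene passed the test, with Col6a1 at 0.88 (adjusted p = 0.0504) and Col6a2 at 0.51 (adjusted p = 0.303). Of the 8 other collagens, Col16a1 alone rose, by 1.06 (adjusted p = 0.00379), and Col8a1, Col7a1, Col20a1 and Col9a3 gave 0.65, -0.02, -0.44 and -0.48 without passing.

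Of the 5 laminins tested none rose and 1, Lamb3, fell, with a median log2 fold change of 0.47. Lamb3 was 381, 383, 361 and 409 in the Prmt5-null libraries and 657, 531, 629 and 536 in the controls. All 4 Prmt5-null values lay below all controls and differed little among themselves, and Lamb3 fell by 0.61 ± 0.108 (limma adjusted p = 0.0035). Lamc1 was 2320, 2493, 1781 and 2567 against 2641, 1710, 2402 and 2339, 2 groups that overlapped almost fully, with a difference of 0.02 ± 0.144 (adjusted p = 0.962). Lamb2 at 0.53 (adjusted p = 0.103), Lamb1 at 0.53 (adjusted p = 0.346) and Lama5 at 0.47 (adjusted p = 0.213) did not pass. The summed normalized count of the laminins, most of it Lamc1, was 0.967 times that of the controls, and the sums of the other classes were 1.25 to 1.87 times those of the controls; the difference between classes was not tested.

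Of 7 metalloproteinases tested, Mmp14 and Mmp15 rose, both membrane-bound. Mmp15 was 77.8, 86.8, 77.9 and 70.1 in the Prmt5-null libraries and 12.9, 41.01, 16.1 and 15.4 in the controls. CTRL-10370 was higher than the other controls but still below every Prmt5-null library. The rise of 1.97 ± 0.326 (limma adjusted p = 0.00228) was the largest of any member. Mmp14 was 215, 110, 134 and 162 against 96.9, 78.5, 82.4 and 78.2, and rose by 0.84 ± 0.206 (limma adjusted p = 0.0189). Mmp12, the macrophage elastase, showed a single high value of 171 in CTRL-10370, with 7.11 to 84.4 elsewhere, and gave 0.67 ± 0.769 (adjusted p = 0.611). Of the inhibitors, Timp2 was 904, 436, 812 and 588 against 482, 326, 325 and 322 and rose by 0.88 ± 0.215 (limma adjusted p = 0.019), and Timp1 gave 0.79 (adjusted p = 0.121).

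Among the cross-linking enzymes Loxl4 and Loxl3 rose, without overlap of the groups. Loxl4 was 434, 244, 385 and 277 in the Prmt5-null libraries and 180, 158, 159 and 168 in the controls, a rise of 0.97 ± 0.179 (limma adjusted p = 0.00431). Loxl3 rose by 0.72 (adjusted p = 0.00785); 11.6% of its exonic length overlaps Htra2 on the other strand, and the strand setting of the counting is not given in the sources used here. Lox and Loxl1 gave 0.72 each (adjusted p = 0.169 and 0.274). Of the fibulins and fibrillins, Fbln2 was 547, 325, 437 and 389 against 287, 211, 224 and 239 and rose by 0.80 ± 0.164 (limma adjusted p = 0.00744). Fbln1 rose by 1.54 ± 0.455 (adjusted p = 0.0434) on low values, 11.1 to 22.5 against 2.15 to 9.48. Fbn1, the main microfibril protein, gave 0.90 (adjusted p = 0.0512), and 20.1% of its exonic length overlaps Gm9913 on the other strand.

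Thbs1, the most abundant member, was 6294, 2744, 4414 and 4167 in the Prmt5-null libraries and 3646, 2043, 2031 and 2299 in the controls. It is a secreted glycoprotein that activates latent TGF-beta. CTRL-10650 was set off above the other controls and exceeded PRMT5-10618, and Thbs1 rose by 0.80 ± 0.233 (limma adjusted p = 0.0416). Thbs1 was also called by edgeR (adjusted p = 0.0398). It was not called by DESeq2 (adjusted p = 0.0603) or by limma without the trend (adjusted p = 0.108). Thbs2 rose by 1.00 (adjusted p = 0.019) and Thbs3 gave 0.22 (adjusted p = 0.631). Sparc, a collagen-binding glycoprotein, was 665, 331, 750 and 471 against 392, 253, 252 and 308, with CTRL-10650 above PRMT5-10618, and rose by 0.83 ± 0.236 (limma adjusted p = 0.0368). Fn1 was 1093, 875, 1059 and 1090 against 1233, 510, 638 and 851; its highest value was in a control library, and it gave 0.42 ± 0.216 (adjusted p = 0.218). The calls of Thbs1 and Sparc were each lost when any of 6 of the 8 libraries was left out, and that of Fbln1 when any of 7 was.

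**Figure D3:**
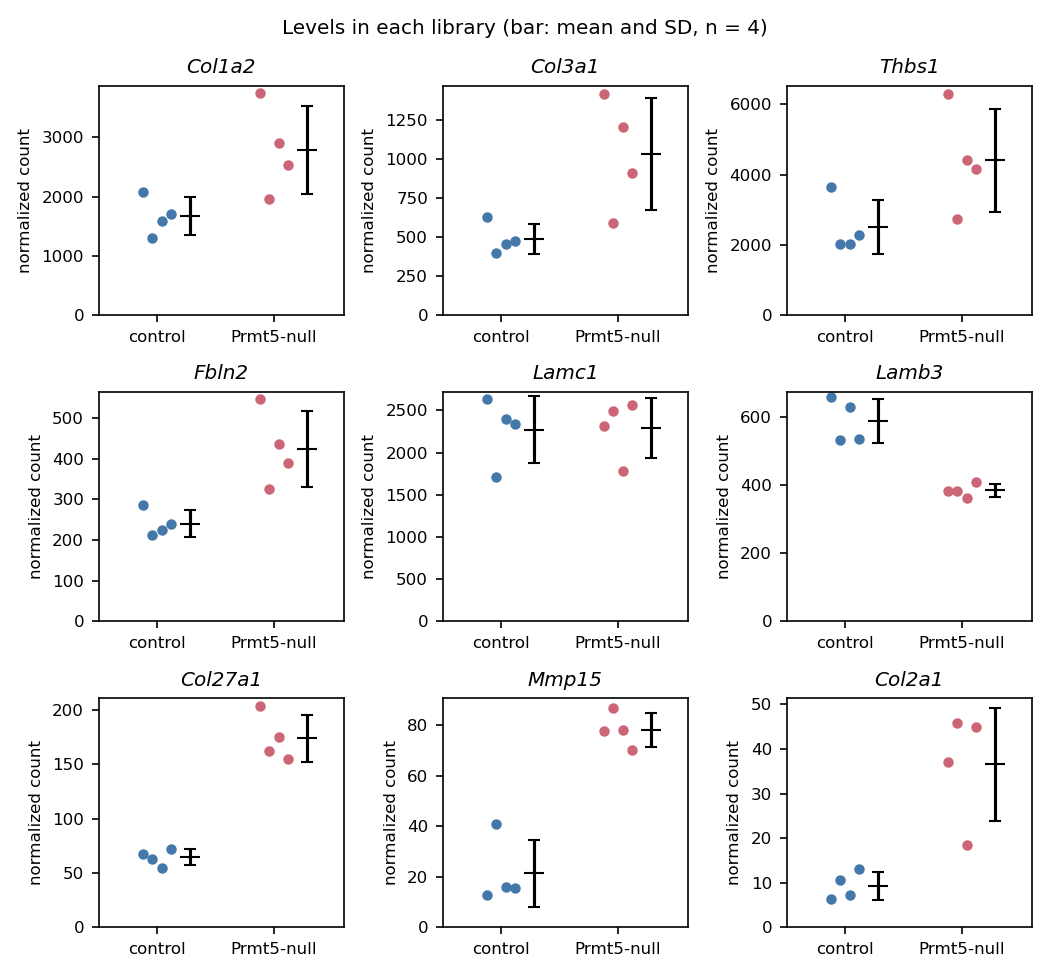
Normalized counts of 9 members in each library (points; control blue, Prmt5-null red) with the mean and SD of 4 libraries beside them; each axis starts at 0. In Col1a2, Col3a1 and Thbs1 the lowest Prmt5-null library lies under the highest control, in Lamc1 the genotypes overlap, in Lamb3 all 4 Prmt5-null libraries lie below the controls, and in Fbln2, Col27a1, Mmp15 and Col2a1 all 4 lie above.

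The largest genotype differences were not found in the genes that followed the index most closely. The 16 members with a score of at least 10 had log2 fold changes of 0.18 to 1.02 and a median of 0.74, and 9 of them were called higher. Mmp15 (score 4), Col2a1 (score 3) and Fbln1 (score 2) had the 3 largest differences, 1.97, 1.83 and 1.54, with scores below the median of all genes. Col16a1 (score 5) was of the same kind at 1.06, and Col27a1 combined a difference of 1.42 with a score of 9. Mmp15, Col2a1 and Fbln1 had low means of 49.75, 22.95 and 10.84 normalized counts, against 123.9 for Col16a1 and 119.3 for Col27a1. At such low levels the order of libraries rests on few reads. The low scores of Mmp15, Col2a1 and Fbln1 therefore cannot show that they do not follow the index. The same limit holds for the high scores of Loxl1, Mmp9 and Tnc, whose means were 35.13, 26.85 and 20.1.

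**Figure D4:**
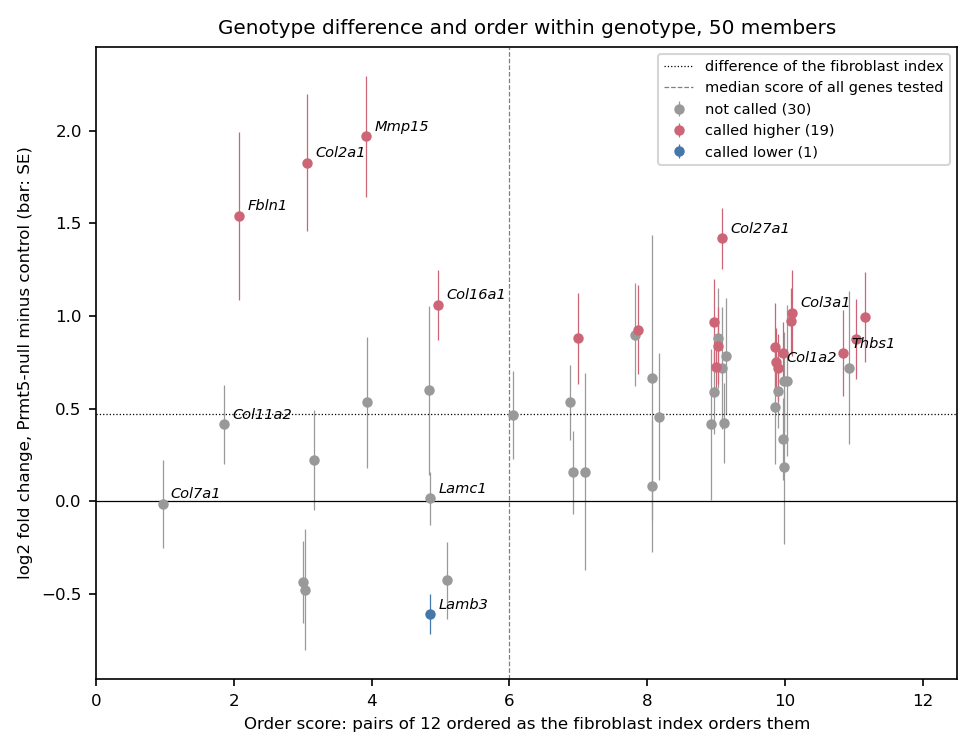
Log2 fold change between genotypes (y axis, bars are SE) against the order score (x axis, points shifted slightly sideways) for 50 members, colored by call. At scores of 10 and 11 the members have a median of 0.74, above the dotted line of the index difference (0.47), while Mmp15, Col2a1 and Fbln1 stand high at scores of 2 to 4 and Lamb3 low at 5.

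The genotype difference was then estimated with the fibroblast index as a covariate, so that it refers to libraries of equal index. The index differs between the genotypes and was measured in the same libraries, which leaves part of the genotype difference inseparable from it. With the index, 4 members were higher and 1 was lower, compared with 3.09% and 2.24% of all genes, and the median log2 fold change of the members was 0.11. Of the 20 members called on genotype alone, 16 were no longer called. Thbs1 went from 0.80 to -0.09 (limma adjusted p = 0.763), Sparc from 0.83 to 0.03 (adjusted p = 0.957), Col3a1 from 1.02 to 0.19 (adjusted p = 0.611), Timp2 from 0.88 to 0.10 (adjusted p = 0.774) and Col1a2 from 0.72 to 0.11 (adjusted p = 0.762).

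The members still called were Mmp15 at 2.21 ± 0.509 (limma adjusted p = 0.0278), Col2a1 at 2.28 ± 0.559 (adjusted p = 0.0348), Col27a1 at 1.17 ± 0.240 (adjusted p = 0.0164) and Lamb3 at -0.64 ± 0.168 (adjusted p = 0.0451). Col11a2 was called with the index only. It was 539, 697, 385 and 520 in the Prmt5-null libraries and 280, 342, 505 and 492 in the controls, overlapping groups that differed by 0.41 on genotype alone (adjusted p = 0.219) and by 0.97 ± 0.256 at equal index (adjusted p = 0.0451). Fbln1 at 2.37 (adjusted p = 0.0528) and Col16a1 at 0.90 (adjusted p = 0.0952) missed the threshold; Fbln1 was larger than its 1.54 on genotype alone, Col16a1 was smaller than its 1.06, and the SE of both was larger.

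**Figure D5:**
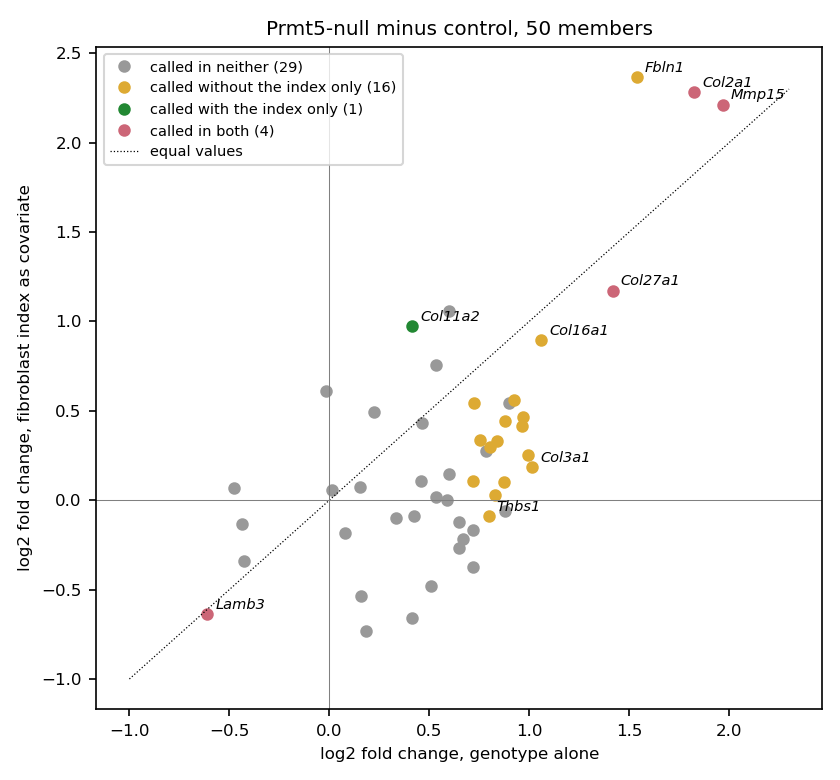
Log2 fold change of each of 50 members with the fibroblast index as a covariate (y axis) against that on genotype alone (x axis), colored by where the member was called; the dotted line marks equal values. Most of the 16 members that lost their call drop toward 0, and Mmp15, Col2a1, Col27a1 and Lamb3 stay near the line.

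The transcripts that 40LB cells are made to express gave a mixed picture. Cd40lg, the gene of CD40L, was 9.26, 18.4, 10.8 and 18.7 normalized counts in the Prmt5-null libraries and 12.9, 7.13, 8.96 and 7.11 in the controls. These are 6 to 20 reads per library, too few to order the libraries firmly, and the genotypes overlapped (0.58 on the log2 scale, exact two-sided permutation p = 0.1143, n = 4 and 4). Tnfsf13b, the gene of BAFF, was 96.3, 39.8, 62.8 and 41.1 against 32.3, 39.2, 30.5 and 40.3, with its 2 highest values in the 2 Prmt5-null libraries of highest index (0.65, exact two-sided permutation p = 0.0571, where 0.0286 is the smallest this design allows). Whether the introduced sequences are mouse and would be counted as these genes is not given in the sources used here.

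When libraries were ordered by Cd40lg in place of the index, the median order score of the members was 5, near the 6 of all genes, and when they were ordered by Tnfsf13b, an alternative added with the values already known, the median was 8. Over the 8 libraries, the 4 most abundant members gave Pearson r with Cd40lg of 0.35 (Thbs1), 0.54 (Lamc1), 0.33 (Col1a2) and 0.36 (Col1a1), with an adjusted exact permutation p of 0.418 for each of the 4 relations. Spearman rho was 0.50, 0.64, 0.52 and 0.55 (adjusted exact permutation p = 0.216 each). Without PRMT5-10771 and PRMT5-10618, the libraries farthest from the median of Cd40lg, r was 0.57, 0.36, 0.50 and 0.47. Prmt5, which feeder cells keep, had an order score of 4.

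Lists of related genes were described in the same way. Of the 23 fibroblast genes tested, 4 rose (Mfap5, Axl, Nid1 and Twist2) and 1 fell (Nid2), with a median log2 fold change of 0.56. Nid1 and Nid2, which link laminin to type IV collagen, thus went in opposite directions, by 1.01 and -0.90 (limma adjusted p = 0.0339 and 0.0318). The 23 genes had a median order score of 9, with 8 at 10 or more and 3 at 6 or less (Cdh11 lowest at 1). They make up the index, so their scores are not independent of it. The sum over all 30 genes of the fibroblast list was 5520 to 8529 normalized counts in the Prmt5-null and 4334 to 6028 in the control libraries; Tcf21 was listed at 0, and Ctgf, Cnn1 and Tnfrsf11b each were at 0 in most libraries. Of 17 genes of collagen synthesis tested, 3 rose and none fell, with a median of 0.22 and a median order score of 8. The 3 were Fkbp10, a collagen chaperone (1.82, limma adjusted p = 0.000128, order score 10), Plod2, a collagen lysyl hydroxylase (0.89, adjusted p = 0.00168, order score 9), and Bmp1, the procollagen C-proteinase (0.62, adjusted p = 0.00417, order score 8). The list also holds P4hb, a subunit of the prolyl hydroxylase and a general folding enzyme of the secretory pathway, which ran from 17497 to 31294 and gave -0.40 (limma adjusted p = 0.0665). Of 18 matrix receptor rows (Cd47 has 2), mostly integrins, 2 rose and none fell, with a median of 0.15 and a median score of 7.5. They were Ddr2, a fibrillar collagen receptor of mesenchymal cells (0.63, adjusted p = 0.0416, order score 9), and Itgb4, the beta chain of a laminin receptor (1.80, adjusted p = 0.00379, order score 4). The 12 B cell marker rows had a median of 0.09, a median score of 5.5 and no score of 10 or more, with 1 called in each direction (Cr2 higher, Cd79a lower). Myeloid, endothelial, megakaryocyte, T cell and plasma cell lists had 3, 4, 2, 2 and 6 genes tested, of which 1 (Emr1), 1 (Tek), 0, 0 and 0 rose and none reached a score of 10. The part of other cell types in the matrix gene differences was not tested beyond these values.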

How the data were processed

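Total RNA depleted of rRNA was sequenced in 8 libraries with a stranded kit. Per the submitters' processing notes, reads were handled with Trimmomatic 0.32, STAR 2.3.0e, featureCounts 1.4.4 and DESeq2 1.14.1 on GRCm38/mm10; the strand setting of the counting is not given in the sources used here. The authors deposited a signal table of counts divided by library size factors for 39017 genes, from which whole reads were recovered (tolerance 0.01 read). Splicing tables hold the authors' own comparison and were not used.

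The main test was limma 3.58.1 (intensity trend) in R 4.3.3 on log2(value + 1), for 16250 genes with a mean of at least 10, with Benjamini-Hochberg adjustment over all of them and calls at adjusted p below 0.05 and 1.5-fold. Alternatives were pseudocounts, filters, TMM scaling, edgeR 4.0.16, DESeq2 1.42.0, left-out libraries, a principal component block and the fibroblast index; the scripts were tested on simulated data. The members, gene lists and the ratio and slope summaries were chosen with earlier results of these data known. Genes named were every called member, the 2 most abundant per class, the 5 largest changes each way, the 5 lowest order scores with a mean of at least 50, the called and most abundant genes of other lists, Cd40lg, Tnfsf13b and Prmt5; other names (such as Col15a1, Lama5, Mmp12, Postn, Col6a3 and those of high order score) were added after values were seen. The p-values measure the spread between these samples.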

Additional observations from a re-analysis of the deposited data

Results flagged for a closer look

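In groups of 4 libraries, 10 values stood farther from the other 3 than Dixon's criterion allows, out of 106 groups tested; chance alone marks about 1 group in 20. CTRL-10650 was high for Thbs1 (3646 normalized counts, others at most 2299), Timp2 (481.5, others at most 326.3) and Loxl1 (64.62, others at most 21.4). PRMT5-10618 was low for Fn1 (874.9, others at least 1059), Lamb2 (113.3, others at least 175.9) and Col4a5 (100, others at least 177.5). These 2 libraries have the highest and the lowest fibroblast index of their genotype. The other 4 values were in different libraries: Lox in PRMT5-10617 (287, others at most 116.9), Mmp15 in CTRL-10370 (41.01, others at most 16.13), Fbn1 in PRMT5-10770 (62.75, others at most 39.81) and Mmp28 in PRMT5-10771 (25.22, others at most 12.96).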

How the results depend on the processing

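The count of members called higher (19) and lower (1) was 16 to 22 and 1 under the other pseudocounts, filters, scaling, tools (14 and 1 without the trend) and the principal component block. It was 4 and 1 with the fibroblast index as a covariate, where the median log2 fold change moved from 0.66 to 0.11, and 7 and 1 at an adjusted p below 0.01. Leaving out 1 library gave 9 to 23 higher and 0 to 1 lower, with 9 without PRMT5-10617, 10 without CTRL-10596, and Lamb3 not called without PRMT5-10770, CTRL-10650 or CTRL-10596. The median log2 fold change was then 0.59 to 0.83. With the index as a covariate 33 members were higher instead of 45. Among the members named by rule the sign turned for Thbs1 (-0.089), Fn1 (-0.090), Col6a1 (-0.063), Col8a1 (-0.27), Col6a2 (-0.48), Mmp11 (-0.10), Col7a1 (0.61) and Col9a3 (0.069), and it also turned for Lox, Loxl1, Mmp9, Mmp12, Mmp19, Tnc, Col14a1 and Col15a1. Leaving out 1 library gave -0.12 to 0.13 for Lamc1 and -0.16 to 0.13 for Col7a1. The median order score was 9 by the summed fibroblast list and for members above a mean of 50, 5 by Cd40lg, and 6 to 7 of 9 pairs with 1 library left out, where all genes gave 4 to 5; why the order by Cd40lg differs was not tested. No paired analysis was possible because the genotypes share no replicate numbers. With 4 libraries per genotype and an index that itself differs between them, feeder RNA and genotype cannot be told apart for members such as Thbs1 and Sparc, whose difference fell to near 0 with the index.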
